A study of Mus musculus with 12 samples.

Results

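The 10 dendritic cell genes described here were chosen by name and each was found once in the table of 23282 lines, 46 of which repeat a gene symbol: Xcr1, Clec9a, Batf3, Irf8, Itgae, Flt3, Zbtb46, Ccr7, Fscn1 and Cd209a. Their read counts were followed in all 12 tumors of a 3′ mRNA sequencing experiment on MC38 tumors, grown from a mouse colon carcinoma cell line under the skin of 6-week-old female wild-type C57BL/6 mice and collected on day 19. There were 4 groups of 3 tumors. Con tumors came from mice given saline and an IgG2a control antibody. SFIH tumors came from mice given a daily 50 mg/kg of SFIH, an Inula helenium fraction rich in sesquiterpene lactones, with the control antibody. PD tumors came from mice given 200 μg of anti-PD-1 antibody, and Comb tumors from mice given both agents. All injections were intraperitoneal. The comparisons asked how the combination and its parts altered the immune content of the tumor.

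Dendritic cells take up antigen, carry it to lymph nodes and present it to T cells. Conventional type 1 dendritic cells (cDC1), which depend on the transcription factors BATF3 and IRF8, are the cells best known for presenting tumor antigen to CD8+ T cells. Type 2 cells and monocyte-derived dendritic cells present mainly to CD4+ T cells, and a mature, migratory state marked by CCR7 and FSCN1 can be reached from either lineage.

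The labels call the material tumor cells, but RNA was taken from whole tumor tissue, so fewer cells of a type and less RNA per cell cannot be told apart. Levels are given as CPM, the reads of a gene scaled to a common library size with TMM factors. They are used to compare 1 gene between tumors and not different genes with each other. Total counts ran from 7870741 to 12261032 per tumor (median 9932321). At this depth Irf8 and Fscn1 had at least 369 reads in every tumor, whereas Itgae, Flt3 and Cd209a had 27, 48 and 118 at most. Counts of 3 reads or fewer in a library were taken as the floor of detection. Cd209a was at or below it in 7 tumors, Flt3 in 4 and Clec9a in 1.

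One library, Comb replicate 3, stood apart. Its median correlation with the other tumors was 0.725, against 0.945 to 0.982 for the other 11. The summed level of 8 skeletal muscle markers was 563 times the median of the other 11 tumors, and that of 8 skin markers was 91.3 times it. The 10 macrophage markers reached 14.4 times that median, 11 T cell markers 9.89 times, adipocyte markers 23.6 times and neutrophil markers 20.1 times. A list of 3 Langerhans cell markers, for the dendritic cells of the epidermis, summed to 1.31 to 2.19 CPM in Con, 0.96, 21.8 and 8.10 CPM in PD and 6.51, 35.9 and 301 CPM in Comb. Its tested genes were Epcam and Cd24a, which other cells make too. Both were higher in Comb than in Con at an unadjusted edgeR p under 0.05 (18% of all genes), also without Comb replicate 3 (11.4% of all genes). The defining Langerhans cell marker Cd207 had no read in any Comb tumor and 4 at most elsewhere. Muscle markers also lay above the range of Con (10.7 to 15.5 CPM) in SFIH replicate 1 (51.8 CPM), PD replicate 1 (149 CPM), PD replicate 3 (19.6 CPM) and Comb replicate 1 (730 CPM). Skin markers summed to 26.6 CPM in SFIH replicate 1, against 3.93 to 5.22 CPM in Con. Epithelial tumor markers summed to 116 CPM in Comb replicate 3 and to between 4.69 and 25.2 CPM in the other 11 tumors. Cdx2, an intestinal transcription factor, was at 3 counts or fewer everywhere. Other tissues also varied among the remaining tumors. The 6 fibroblast markers summed to 1306 to 1877 CPM in Con and 675 to 2708 CPM in SFIH. In every PD tumor (2723, 4947 and 3909 CPM) and in Comb replicates 1 and 2 (2134 and 8492 CPM) they lay above Con. The 6 adipocyte markers summed to 33.3 to 57.8 CPM in Con and 482 CPM in Comb replicate 2. PD replicate 2 and Comb replicate 2 also had the highest shares of reads on the ribosomal RNA gene Rn45s (17.1% and 14.1%, against 4.28% to 10.3% in the other tumors). Fold changes with Comb tumors are therefore given with and without Comb replicate 3, and the part of these other tissues in the results was not tested.

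**Figure D1:**
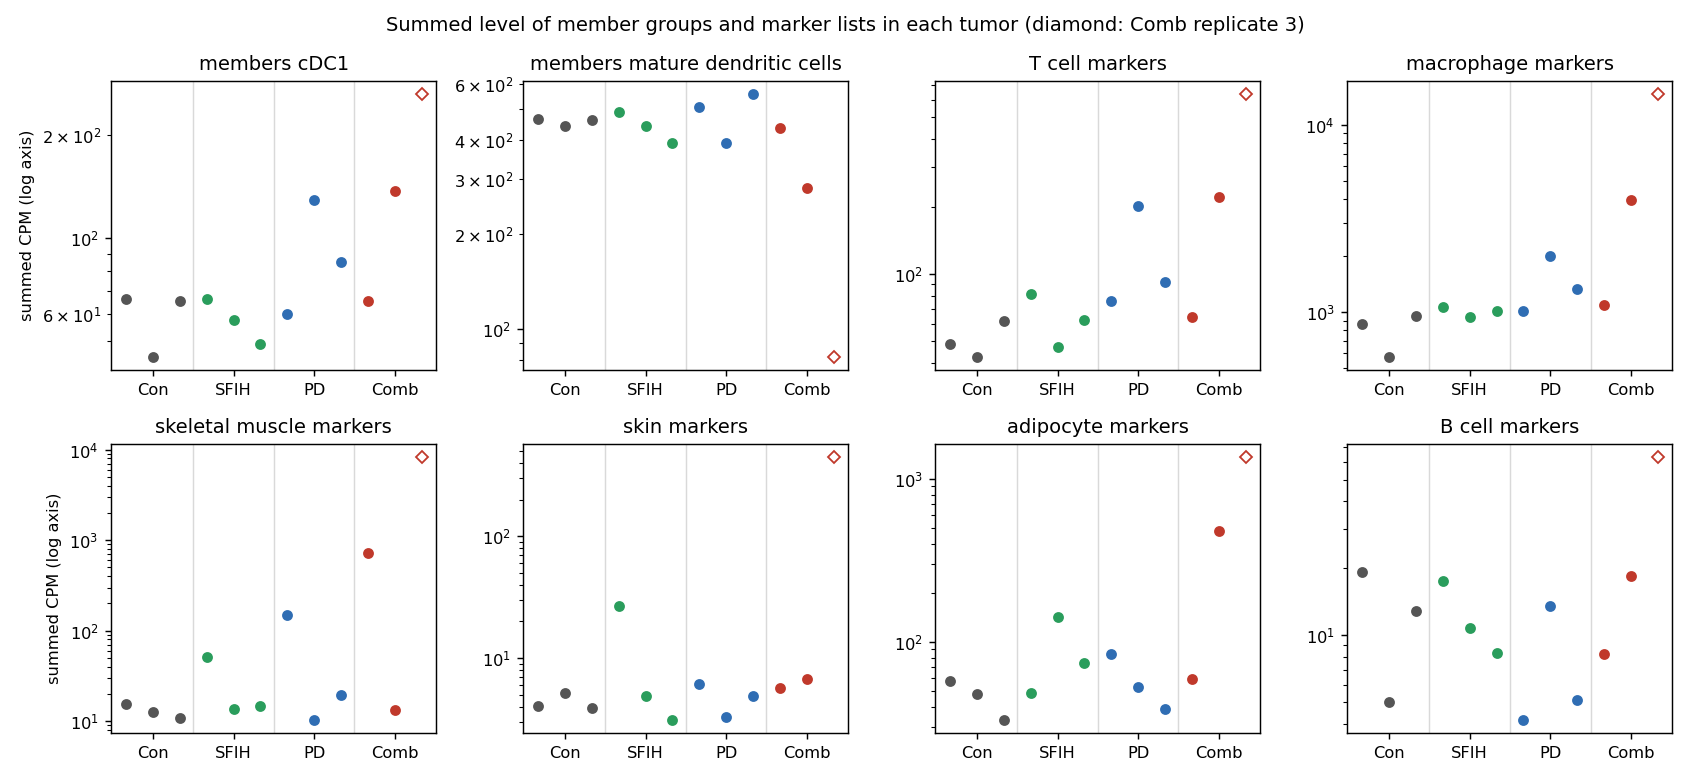
Summed level of 2 groups of members and of 6 marker lists in each tumor, in CPM on a log axis, with tumors ordered by group and replicate and Comb replicate 3 drawn as an open diamond. Comb replicate 3 lies highest in every panel other than the mature dendritic cell members, where it lies lowest at 81.4 CPM against 281 to 558 CPM in the other tumors. Most of that sum is Fscn1, which stood at 69.9 CPM in Comb replicate 3. Ccr7 stood at 11.6 CPM in the same library, within the range of Con.

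Across the members, the genes of the cDC1 lineage and Cd209a were on average higher in the Comb tumors than in Con, whereas the estimates for Zbtb46 and Fscn1 were below 0 and that for Ccr7 was near 0. The median log2 fold change of the 10 members was 1.73 for Comb against Con, beside -0.03 for all 13464 genes tested, and 7 of the 10 were higher. It was 0.68 for PD against Con, 0.09 for SFIH against Con and 1.06 for any anti-PD-1 against none (median of all genes 0.01, 0.02 and -0.03). Without Comb replicate 3 the members' median was 0.96 for Comb against Con and 0.62 for any anti-PD-1 against none, and 7 of 10 were higher in each. The median for PD against Con was 0.28 without PD replicate 2 and 0.35 without Con replicate 2, and that for SFIH against Con ran from -0.17 (without SFIH replicate 1) to 0.25 over the tumors left out. No member passed edgeR's quasi-likelihood test at a Benjamini-Hochberg adjusted p of 0.05 in any of the 6 comparisons, where 0% of all genes were called in each.

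**Figure D2:**
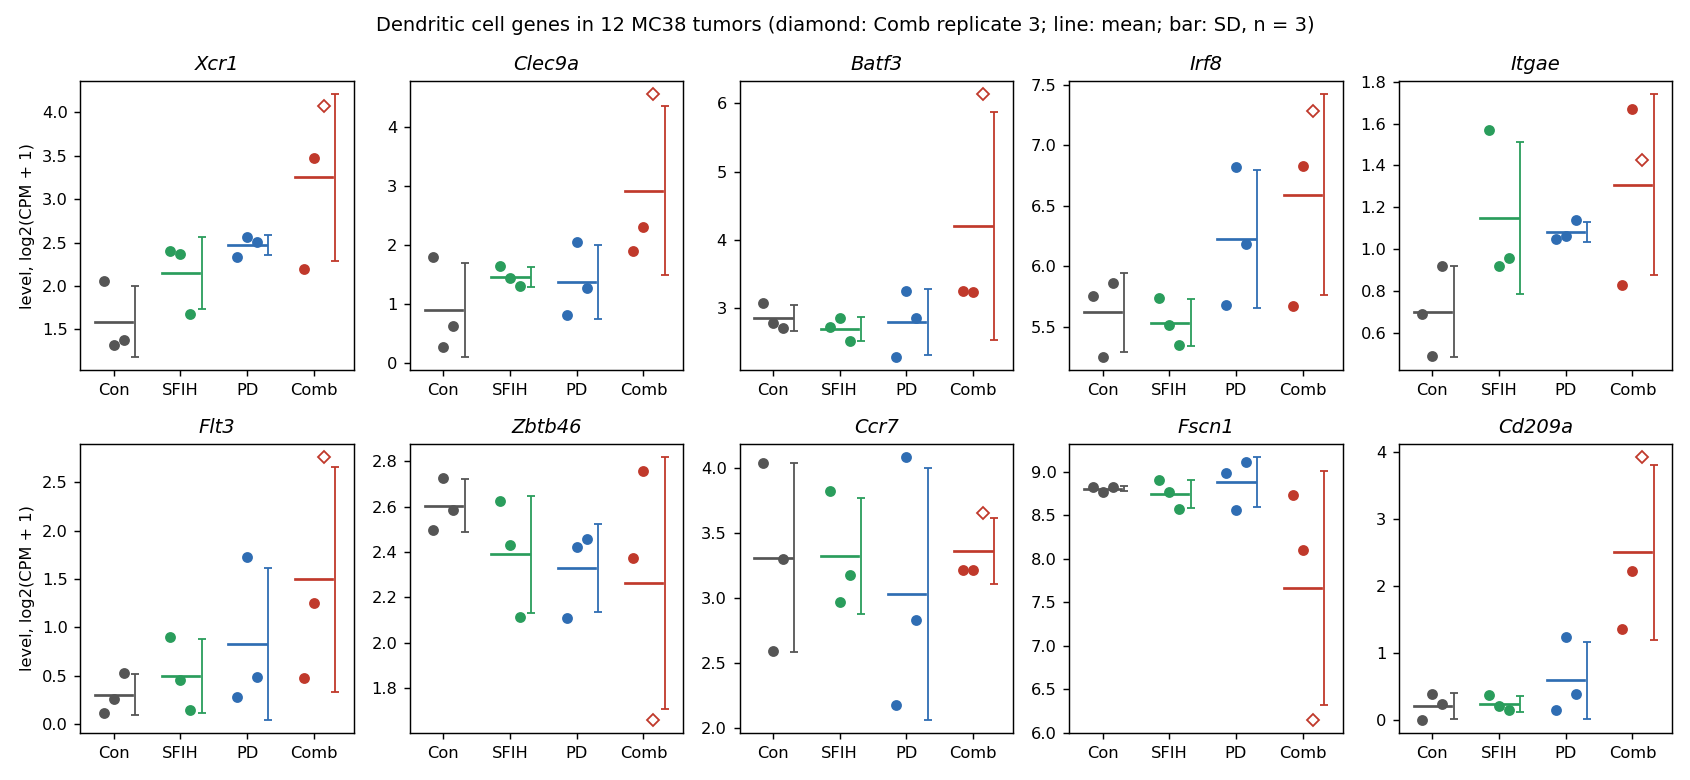
Level of each member as log2(CPM + 1) in the 12 tumors by group, with the mean of 3 tumors as a line and the SD as a bar beside it; each panel has its own axis, which does not start at 0. The open diamond is Comb replicate 3, which is highest for Xcr1, Clec9a, Batf3, Irf8, Flt3 and Cd209a and lowest for Zbtb46 and Fscn1.

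In 4 members, Xcr1, Clec9a, Batf3 and Cd209a, all 3 Comb tumors lay above all 3 Con tumors, which was true of 11.7% of all genes. The sequences in front of these 4 genes are shown for this reason. Each run is the RefSeq window from 250 bases before to 50 bases after the start of the gene, on the strand of the gene and in build GRCm38.p6. The build behind the counts is not given in the sources used here, and no count is tied to these positions. Xcr1 lies at chr9:123861980-123862279 (minus strand), Clec9a at chr6:129408612-129408911 (plus), Batf3 at chr1:191098164-191098463 (plus) and Cd209a at chr8:3748935-3749234 (minus). Capitals mark matches to the motifs searched on both strands: the AP-1 motif TGANTCA, to which BATF factors bind, the interferon-stimulated response element, the ETS-IRF composite element, to which IRF8 binds with a partner, and the TATA box TATAAA.
Xcr1: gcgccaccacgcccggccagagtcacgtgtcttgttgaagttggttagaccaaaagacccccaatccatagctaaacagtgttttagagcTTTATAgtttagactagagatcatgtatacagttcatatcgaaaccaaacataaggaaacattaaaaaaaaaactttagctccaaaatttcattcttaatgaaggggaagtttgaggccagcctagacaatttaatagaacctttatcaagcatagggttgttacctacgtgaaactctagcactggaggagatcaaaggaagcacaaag
Clec9a: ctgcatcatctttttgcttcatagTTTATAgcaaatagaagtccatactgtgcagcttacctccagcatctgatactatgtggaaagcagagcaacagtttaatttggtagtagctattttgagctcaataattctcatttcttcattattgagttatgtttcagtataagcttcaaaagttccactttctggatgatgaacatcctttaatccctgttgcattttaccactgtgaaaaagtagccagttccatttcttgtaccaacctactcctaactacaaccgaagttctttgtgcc
Batf3: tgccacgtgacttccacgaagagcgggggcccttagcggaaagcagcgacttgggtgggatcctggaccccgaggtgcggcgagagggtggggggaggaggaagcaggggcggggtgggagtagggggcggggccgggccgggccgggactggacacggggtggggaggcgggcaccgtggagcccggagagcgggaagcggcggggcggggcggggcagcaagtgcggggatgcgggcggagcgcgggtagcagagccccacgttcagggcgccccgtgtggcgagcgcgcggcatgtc
Cd209a: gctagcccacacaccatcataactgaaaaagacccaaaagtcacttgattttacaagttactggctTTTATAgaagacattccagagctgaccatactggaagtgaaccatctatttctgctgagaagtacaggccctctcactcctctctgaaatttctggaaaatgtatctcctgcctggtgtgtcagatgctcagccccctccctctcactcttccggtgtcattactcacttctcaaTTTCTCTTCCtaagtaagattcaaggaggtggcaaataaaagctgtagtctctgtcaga

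The only composite ETS-IRF match among the members was the one in Cd209a, at position -9 from the start, and 2.72% of the 32851 windows of the table held this motif. The AP-1 motif (7.81% of windows) was found in Zbtb46 alone, at position -61. No member window held the interferon-stimulated response element (3.44% of windows). A TATAAA match (13.6% of windows) was present in 5 of the 9 member windows, at -31 in Fscn1 and in 1 of the 2 windows of Irf8, and at -160, -184 and -226 in Xcr1, Cd209a and Clec9a. The Batf3 and Flt3 windows held none of the 4 motifs. Itgae and Ccr7 had no window in the table. A match describes these letters only.

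Xcr1 encodes the receptor for the chemokine XCL1 and is the most specific surface marker of cDC1. The Con tumors held 3.16, 1.51 and 1.61 CPM and the SFIH tumors 4.29, 4.16 and 2.19. Anti-PD-1 alone gave 4.06, 4.91 and 4.70 CPM, and the Comb tumors held 3.59, 10.1 and 15.9. All PD and all Comb tumors lay above the highest Con tumor, and SFIH overlapped Con. The mean of Con was 2.09 ± 0.93 CPM (SD, n = 3), beside 3.55 ± 1.18 for SFIH, 4.55 ± 0.44 for PD and 9.87 ± 6.15 for Comb. The log2 fold change for Comb against Con was 2.23 ± 0.54 (SE; edgeR adjusted p = 0.0665), and 1.70 ± 0.50 (adjusted p = 0.121) without Comb replicate 3. For PD against Con it was 1.12 ± 0.53 (edgeR adjusted p = 0.9998).

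Clec9a encodes a lectin by which cDC1 sense the exposed actin of dead cells. Its levels were 2.46, 0.20 and 0.54 CPM in Con and 2.11, 1.71 and 1.46 CPM with SFIH. The PD tumors had 0.75, 3.14 and 1.40 CPM and the Comb tumors 2.72, 3.91 and 22.5. The lowest Comb tumor was only just above the highest Con tumor, and Comb replicate 3 held 187 of the gene's reads against 34 at most elsewhere. Comb differed from Con by a log2 fold change of 3.16 ± 0.99 (SE, edgeR adjusted p = 0.089) and 1.61 ± 0.81 (adjusted p = 0.316) without that library. Of the 75-base windows in the last 500 bases of its transcripts, 1.31% were shared with Clec1b, a neighbouring lectin gene, and reads from these cannot be told apart.

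Batf3, the transcription factor required for cDC1 development, differed little between the groups except in 1 tumor. Con tumors had 7.37, 5.82 and 5.53 CPM, SFIH tumors 5.60, 6.24 and 4.69, PD tumors 3.85, 8.45 and 6.20, and Comb tumors 8.45, 8.40 and 69.3. Comb replicates 1 and 2 exceeded the highest Con tumor by little, and PD replicate 2 was as high as they were. Between Comb and Con the log2 fold change was 2.20 ± 0.72 (SE, edgeR adjusted p = 0.0975) with Comb replicate 3 and 0.43 ± 0.33 (adjusted p = 0.512) without it.

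Irf8 is the partner factor of BATF3 in cDC1 and is also made by macrophages and B cells. Con tumors stood at 52.8, 37.0 and 57.1 CPM, close to the 52.5, 44.7 and 39.8 CPM of SFIH tumors. PD tumors stood at 50.2, 112 and 71.7 CPM and Comb tumors at 49.8, 112 and 154. Comb replicate 1 and PD replicate 1 lay within the range of Con, and the other 4 antibody-treated tumors lay above every Con and SFIH tumor. For Comb against Con the log2 fold change was 1.11 ± 0.39 (SE, edgeR adjusted p = 0.117), and 0.73 ± 0.36 (adjusted p = 0.302) without Comb replicate 3. PD differed from Con by 0.67 ± 0.39 (edgeR adjusted p = 0.9998), and by 0.32 ± 0.40 without PD replicate 2.

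Itgae encodes CD103, the integrin chain found on tissue cDC1 and on resident CD8+ T cells, which binds E-cadherin. With 4 to 27 reads a tumor it had 0.61, 0.40 and 0.89 CPM among Con tumors and 1.96, 0.89 and 0.94 CPM among SFIH tumors. The PD tumors had 1.07, 1.09 and 1.20 CPM and the Comb tumors 0.78, 2.19 and 1.68. The PD tumors lay closely together and above Con, and Comb replicate 1 lay within Con. Comb was higher than Con by 1.26 ± 0.58 on the log2 scale (SE, edgeR adjusted p = 0.202), and 1.19 ± 0.65 (adjusted p = 0.350) without Comb replicate 3.

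Flt3 and Zbtb46 mark conventional dendritic cells of both types. FLT3 is the growth factor receptor on which their supply from bone marrow depends, and ZBTB46 is a transcription factor largely restricted to them and to endothelial cells. Flt3 was counted 1, 2 and 5 times in Con, 12, 5 and 1 times with SFIH, 2, 17 and 4 times with anti-PD-1 and 4, 12 and 48 times with both, and its highest levels were 2.32 CPM in PD replicate 2 and 1.38 and 5.77 CPM in Comb replicates 2 and 3, against 0.87 CPM at most elsewhere. Its log2 fold change for Comb against Con was 3.29 ± 1.22 (SE, edgeR adjusted p = 0.13) and 1.78 ± 1.17 (adjusted p = 0.445) without Comb replicate 3. Zbtb46 was measured at 4.65, 5.62 and 5.00 CPM in Con tumors, 5.17, 4.38 and 3.34 with SFIH, 3.31, 4.36 and 4.50 with anti-PD-1 and 4.18, 5.75 and 2.17 with both. All PD tumors lay below Con, as in 9.36% of genes, while Comb held both the highest and the lowest of the 12 tumors. The log2 fold change of Zbtb46 was -0.33 ± 0.38 (SE, edgeR adjusted p = 0.575) for Comb against Con and -0.04 ± 0.32 (adjusted p = 0.965) without Comb replicate 3, so the estimates of the 2 lineage genes differed in sign.

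Ccr7 encodes the receptor for CCL19 and CCL21 that guides mature dendritic cells, and naive T cells, to lymph nodes. The Con tumors spread over 15.4, 5.02 and 8.84 CPM, and the SFIH tumors over 13.2, 6.84 and 8.03. PD tumors spread most, at 3.52, 16.0 and 6.10 CPM, and Comb tumors held 8.26, 8.29 and 11.6. All Comb tumors, Comb replicate 3 included, lay within the range of Con. The 95% interval of the log2 fold change for Comb against Con ran from -1.26 to 1.14 around an estimate of -0.06 (edgeR adjusted p = 0.949), and without Comb replicate 3 the estimate was -0.24 ± 0.59 (SE, adjusted p = 0.862).

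Fscn1 encodes fascin, an actin-bundling protein of mature dendritic cells that is also made by many carcinoma and mesenchymal cells. Its level was 451, 436 and 452 CPM in the Con tumors, 478, 434 and 381 CPM in those given SFIH, 505, 376 and 552 CPM in those given anti-PD-1 and 426, 273 and 69.9 CPM in those given both. The Comb tumors were all below Con, as in 13% of genes, and Comb replicate 3 was far below the rest. Fscn1 had a log2 fold change of -0.80 ± 0.46 (SE, edgeR adjusted p = 0.29) for Comb against Con, and of -0.35 ± 0.20 (adjusted p = 0.382) without Comb replicate 3. The SD of Fscn1 among Con tumors was 8.99 CPM, against 179 CPM among Comb tumors.

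Cd209a encodes a DC-SIGN-like lectin carried by monocyte-derived and type 2 dendritic cells. It was counted 0, 3 and 2 times in the Con tumors and 4, 2 and 1 times after SFIH. The PD tumors gave 1, 10 and 3 reads and the Comb tumors 16, 32 and 118. Con tumors were thus at or below the floor of detection, and every Comb tumor was above every Con, SFIH and PD tumor. In CPM the Comb tumors held 1.55, 3.68 and 14.2, against 0.30 at most in Con and 1.36 at most in PD. The fitted log2 fold change for Comb against Con was 5.27 ± 1.19 (SE, edgeR adjusted p = 0.0665) and 3.97 ± 1.07 (adjusted p = 0.112) without Comb replicate 3, values that depend on the prior count because Con was so low. Against PD it was 3.49 ± 1.06 (edgeR adjusted p = 0.243), and 2.19 ± 0.96 (adjusted p = 0.547) without Comb replicate 3. None of the 971 windows of 75 bases at the ends of Cd209a transcripts was shared with another gene. Of the related lectin genes, Cd209d ran from 23 to 25 reads in Con and reached 63, 385 and 2757 in Comb, and Cd209e from 0 to 6 in Con and 16, 87 and 966 in Comb. Both were highest in Comb replicate 3, as Cd209a was. These 2 genes were singled out after their values were seen.

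**Figure D3:**
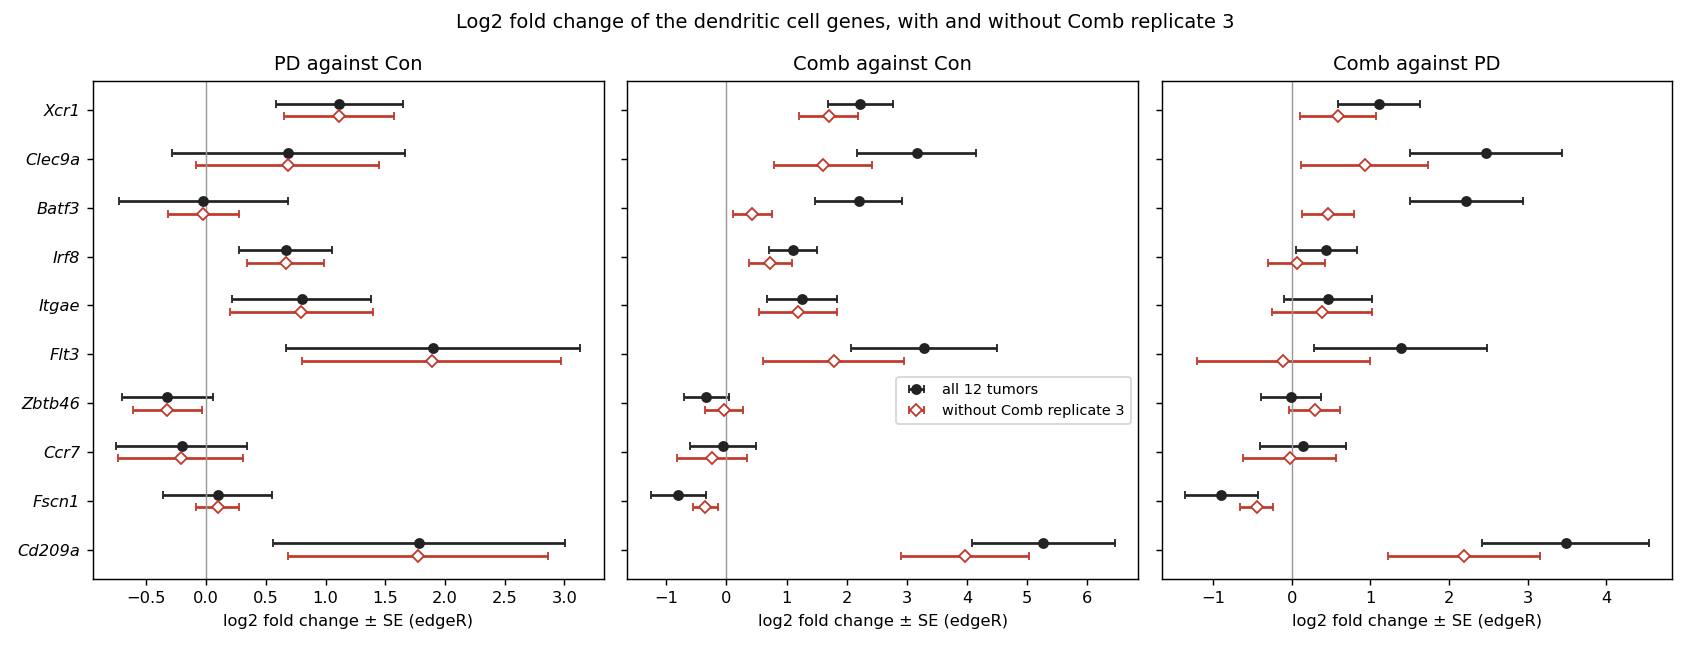
Log2 fold change of each member with its SE from edgeR in 3 comparisons, with all 12 tumors (filled circles) and without Comb replicate 3 (open diamonds); the 3 panels have different horizontal scales. For Comb against Con the estimate for Batf3 went from 2.20 to 0.43 and that for Cd209a from 5.27 to 3.97.

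In the comparison of Comb with Con, at an unadjusted edgeR p under 0.05, 6 members were higher in Comb (Xcr1, Clec9a, Batf3, Irf8, Flt3 and Cd209a) and none lower, where 25.3% of all genes had such a p in either direction and 18% were higher. Without Comb replicate 3 these were 2 members, Xcr1 and Cd209a, beside 11.4% of genes that were higher. DESeq2 called the same 6 members at an adjusted p under 0.05, with 14.9% of all genes called. With Comb replicate 3 left out of DESeq2, Xcr1 (adjusted p = 0.0378) and Cd209a (adjusted p = 0.0309) were called, beside 5.44% of genes. Over all alternatives the adjusted p of Xcr1 ran from 0.00164 to 0.334, that of Cd209a from 0.000362 to 0.334 and that of Batf3 from 0.0158 to 0.541. Leaving out Comb replicate 1 instead, edgeR called 7 members (the 6 higher, and Fscn1 lower) among 28.5% of all genes. Comb replicate 1 was the Comb tumor nearest to Con for Xcr1, Clec9a, Irf8, Itgae, Flt3 and Cd209a.

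Against PD alone, 3 members were higher in Comb at an unadjusted edgeR p under 0.05 (Clec9a, Batf3 and Cd209a), as were 12.9% of all genes. Without Comb replicate 3, Cd209a was higher at such a p, as were 4.11% of genes, and Fscn1 was lower, as were 4.9%. Clec9a differed by 0.93 ± 0.81 (log2, SE; edgeR adjusted p = 0.732) without that library and by 2.47 ± 0.97 (adjusted p = 0.25) with it. All Comb tumors lay above all PD tumors in Cd209a alone, as in 6.16% of all genes, and in no member did all lie below. Batf3 differed by 2.22 ± 0.72 (log2, SE; edgeR adjusted p = 0.243) and by 0.46 ± 0.33 (adjusted p = 0.692) without Comb replicate 3. Flt3, Zbtb46 and Ccr7 took the opposite sign without that library, at -0.11, 0.29 and -0.03. DESeq2 called Batf3 (adjusted p = 0.0483) and Cd209a (adjusted p = 0.0418) with all 12 tumors, among 3.23% of genes, with ranges over all alternatives of 0.0293 to 0.715 and 0.0316 to 0.645. Without Comb replicate 1, edgeR called Xcr1, Batf3 and Cd209a among 15.2% of genes.

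Neither single agent gave a member that passed edgeR or DESeq2, which called 0.0298% of genes for SFIH against Con and 0.0447% for PD against Con. In PD, Xcr1 and Itgae were above all Con tumors, as were 9.42% of genes, and Zbtb46 was below them. In SFIH no member was apart from Con, where 8.55% of genes were apart on the higher side. In Xcr1 and Itgae, 2 of the 3 SFIH tumors lay above all Con tumors, with log2 differences in level of 0.56 and 0.45 (exact permutation p = 0.2 for each). With 3 tumors against 3 the smallest exact p is 0.1, so none of these tests on groups could pass 0.05.

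Between the 6 tumors given anti-PD-1 and the 6 not given it, Xcr1, Irf8 and Cd209a were higher at an unadjusted exact permutation p under 0.05, as were 10% of all genes tested (8.47% without Comb replicate 3). The difference in mean log2(CPM + 1) was 0.99 for Xcr1 (two-sided exact p = 0.0173, 6 against 6), 0.83 for Irf8 (exact p = 0.0238) and 1.32 for Cd209a (exact p = 0.0238). For these 3 genes, and for Clec9a and Batf3, 4 of the 6 antibody-treated tumors lay above all 6 others. This pattern was not counted over all genes, so no background share can be set beside it. For Batf3, PD replicate 1 lay below all 6 others. These 10 tests were not adjusted for their number. Leaving out Comb replicate 3 gave 0.75 for Xcr1 (exact p = 0.0346), 0.66 for Irf8 (exact p = 0.0476) and 0.85 for Cd209a (exact p = 0.0476). The other members had exact p of 0.0823 (Flt3), 0.104 (Clec9a), 0.149 (Batf3), 0.178 (Itgae), 0.292 (Zbtb46), 0.333 (Fscn1) and 0.738 (Ccr7). At an unadjusted edgeR p under 0.05, 6 members were higher, beside 13.4% of genes, and 3 without Comb replicate 3 (Xcr1, Irf8 and Cd209a), beside 11.6% of genes. The edgeR test gave an adjusted p of 0.105 for Xcr1, 0.11 for Irf8 and 0.098 for Cd209a. DESeq2 called these 3 among 9.31% of genes, and Irf8 and Cd209a among 7.3% of genes without Comb replicate 3. Without Comb replicate 1, edgeR called the same 3 among 17.1% of genes.

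Whether the log2 change with both agents differed from the sum of the log2 changes with each alone was tested by an interaction term. Its estimate for Batf3 was 2.40 ± 0.9998 (log2, SE; edgeR unadjusted p = 0.0351, adjusted p = 0.894), the only member with an unadjusted p under 0.05, beside 2% of genes that were higher. For Cd209a it was 3.25 ± 1.75 (edgeR adjusted p = 0.894) and for Clec9a 1.76 ± 1.35 (adjusted p = 0.894). Without Comb replicate 3 the estimates were 0.63 ± 0.44 for Batf3, 1.95 ± 1.60 for Cd209a and 0.22 ± 1.12 for Clec9a (edgeR adjusted p = 0.9998 each), and no member had an unadjusted p under 0.05. DESeq2 called 0.00745% of genes for this term and no member.

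Ptprc encodes CD45, carried by all leukocytes. Con tumors held 132, 66.7 and 129 CPM and SFIH tumors 125, 89.3 and 86.5. PD tumors held 143, 237 and 151 CPM and Comb tumors 117, 273 and 497, so that the highest tumors were PD replicate 2 and Comb replicates 2 and 3, as for Irf8 and Flt3. The mean log2(CPM + 1) of Ptprc was 6.72 in Con and 7.98 in Comb. Relative to Ptprc, the difference of Comb minus Con is therefore lower by the same amount for every gene. The mean log2 level of Xcr1 minus that of Ptprc was -5.13 ± 0.46 (SD, n = 3) in Con, -4.97 ± 0.32 in PD and -4.73 ± 0.14 in Comb. Clec9a stood 0.76 higher in Comb than in Con relative to Ptprc and Cd209a 1.03 higher, whereas Batf3 stood 0.09 higher and Irf8 (-0.29), Itgae (-0.65) and Flt3 (-0.072) lower. Zbtb46 (-1.60), Ccr7 (-1.21) and Fscn1 (-2.41) lay below their Con value on this scale. Without Comb replicate 3 the values were 0.48 for Xcr1, 0.43 for Clec9a, 0.81 for Cd209a, -0.38 for Batf3, -0.15 for Irf8, -0.22 for Itgae, -0.22 for Flt3, -0.81 for Zbtb46, -0.87 for Ccr7 and -1.16 for Fscn1. No test was made of these differences, and for genes near 1 CPM they depend on the pseudocount of 1.

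**Figure D4:**
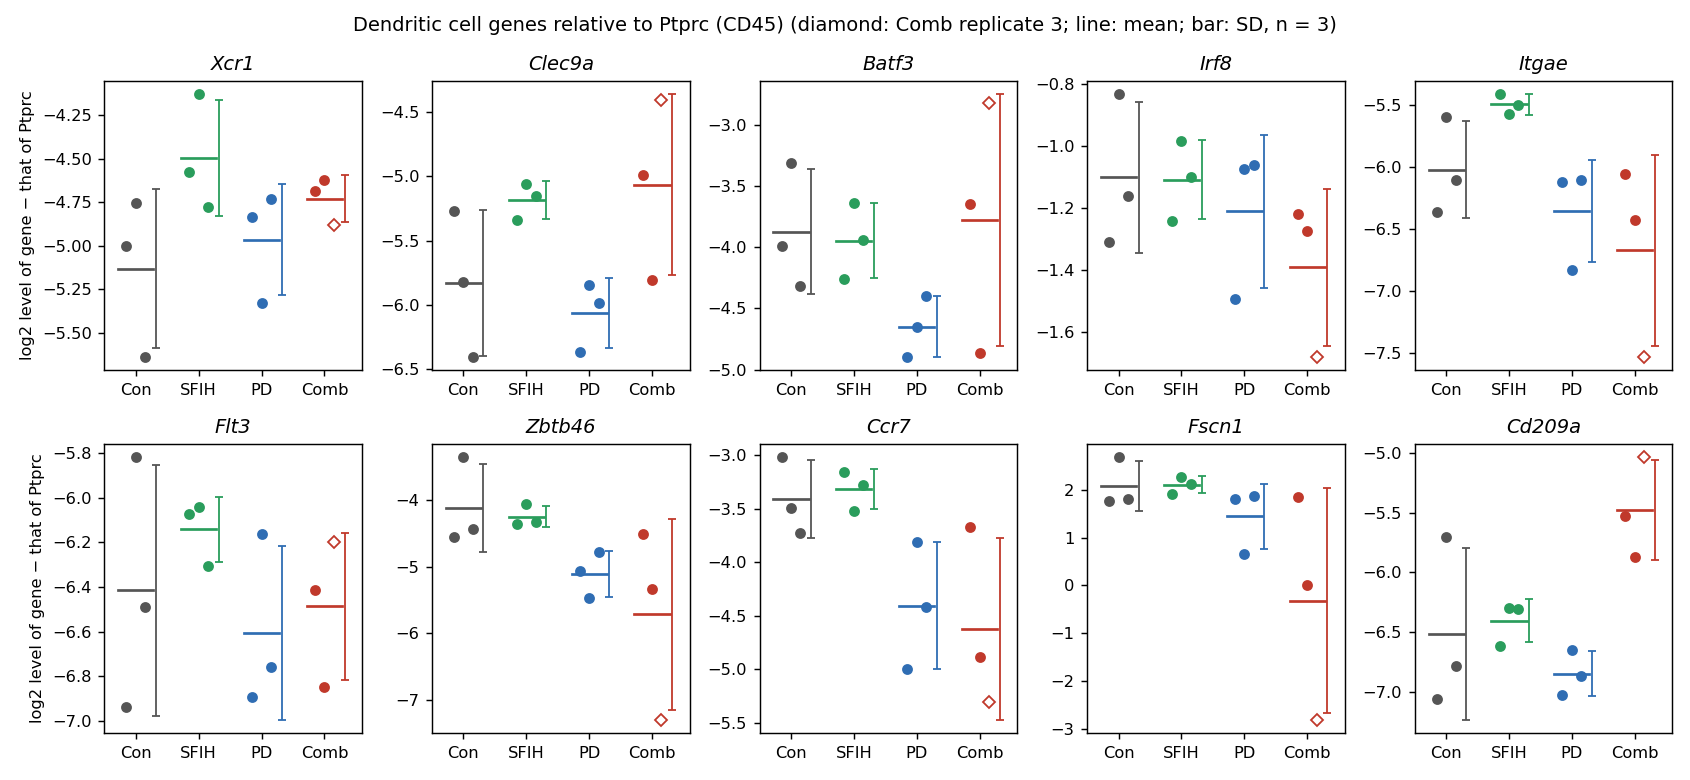
Log2(CPM + 1) of each member minus that of Ptprc in each tumor by group, with the mean of 3 tumors as a line and the SD as a bar; each panel has its own axis. For Xcr1 the 3 Comb tumors lie between -4.88 and -4.62 and overlap Con, whereas for Fscn1 they spread from -2.81 to 1.85.

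The ligands of these receptors were followed beside them. Xcl1, the ligand of XCR1, which is made by natural killer and CD8+ T cells, had 1.58, 4.01 and 4.46 CPM in the Con tumors and 22.1, 8.77 and 3.96 CPM in the SFIH tumors. It had 6.30, 3.41 and 3.70 CPM in PD tumors and 11.7, 11.9 and 46.3 in Comb tumors. All Comb tumors lay above all Con tumors, and SFIH replicate 1 lay above 2 of the 3 Comb tumors. The log2 fold change of Xcl1 for Comb against Con was 2.79 ± 0.74 (SE, edgeR adjusted p = 0.0686), and 1.81 ± 0.61 (adjusted p = 0.158) without Comb replicate 3. Flt3l, the FLT3 ligand, ran from 7.23 to 10.9 CPM in 11 tumors and stood at 22.4 CPM in Comb replicate 3. Of the CCR7 ligands, Ccl19 had 4 reads or fewer in all tumors other than Comb replicates 2 and 3 (12 and 11). Ccl21a, which has near-identical copies among which reads are split uncertainly, had 0, 0 and 3 reads in Con and 2, 124 and 723 in Comb, but also 395 in SFIH replicate 1 and 107 in PD replicate 1. Cdh1, encoding the CD103 ligand E-cadherin, was highest in PD replicate 2 (15.7 CPM) and Comb replicate 3 (18.9 CPM), against 1.67 to 6.79 CPM in the other tumors. Csf2, the growth factor GM-CSF of monocyte-derived dendritic cells, had no read in any tumor.

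Other genes of the same cells were counted from lists. Of 10 tested cDC1 genes beyond the members, 7 were higher in Comb than in Con, 5 of them at an unadjusted edgeR p under 0.05 (18% of all genes) and none lower at such a p, with a median log2 fold change of 0.50. These included Naaa, a lysosomal amidase (2.36 ± 0.62, SE; edgeR adjusted p = 0.0686), and Rab7b, a regulator of endosomal traffic (1.61 ± 0.44, adjusted p = 0.0714). Cadm1 and Tlr3, both typical of cDC1 and picked after their values were seen, stood at 0.46 ± 0.51 (edgeR adjusted p = 0.562) and -0.30 ± 0.41 (adjusted p = 0.635). Without Comb replicate 3, 7 of the 10 were higher, 3 of them at an unadjusted p under 0.05 (11.4% of all genes), and the median was 0.33, while Ly75, an endocytic receptor also picked after its values were seen, was lower at such a p (-0.71 ± 0.32, edgeR adjusted p = 0.265), as were 7.43% of all genes. Naaa then stood at 0.90 ± 0.23 (edgeR adjusted p = 0.101), Rab7b at 1.03 ± 0.35 (adjusted p = 0.16), Cadm1 at 0.37 ± 0.55 (adjusted p = 0.764) and Tlr3 at 0.07 ± 0.29 (adjusted p = 0.92), the last with the opposite sign.

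Mature dendritic cell genes beyond Ccr7 and Fscn1 numbered 18 tested, of which 16 were higher in Comb than in Con, 10 at an unadjusted edgeR p under 0.05 (18% of all genes). Nfkb2, a subunit of NF-kB picked after its values were seen, was lower at such a p (-0.63 ± 0.23, SE; edgeR adjusted p = 0.132), as were 7.3% of all genes, and stood at -0.41 ± 0.17 (adjusted p = 0.228) without Comb replicate 3. The median log2 fold change was 1.54, and 1.08 without Comb replicate 3, when 14 of the 18 were higher. Ccl22, a chemokine that attracts regulatory T cells, was counted 6, 5 and 7 times in Con, 5, 24 and 16 times in PD and 15, 18 and 119 times in Comb. Il12b, a subunit of the cytokine IL-12, was counted 39, 25 and 28 times in Con, 37, 136 and 93 times in PD and 53, 126 and 22 times in Comb. The count in Comb replicate 3 was thus near those of Con replicates 2 and 3. Relb, a transcription factor of mature dendritic cells that was picked after its values were seen, had 96 reads in that library against 226 to 536 elsewhere. Fscn1, lower in all Comb tumors than in Con, thus had the opposite sign to most of this list, a difference that was not tested.

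The lists for type 2 and monocyte-derived dendritic cells held 14 tested genes, of which 12 were higher in Comb than in Con. Of these, 10 were higher at an unadjusted edgeR p under 0.05 (18% of all genes), and none was lower at such a p. Without Comb replicate 3, 11 were higher, 9 of them at such a p (11.4% of all genes). The median log2 fold change was 3.21, and 1.63 without that library. Without it the 3 lower genes, none at such a p and named for their direction, were Clec4a4 (-0.60 ± 0.53, SE), Klf4 (-0.32 ± 0.20) and Notch2 (-0.01 ± 0.24). Mgl2, a lectin shared by these cells and by macrophages, was counted 23, 46 and 40 times in Con, 57, 150 and 149 times in PD, and 111, 660 and 5826 times in Comb. Macrophage markers were higher too, with 9 of 9 tested higher in Comb than in Con at an unadjusted edgeR p under 0.05 (18% of all genes). The count was the same without Comb replicate 3 (11.4% of all genes). The summed level of the macrophage markers was 574 to 953 CPM in Con. T cell markers were higher in Comb than in Con in 11 of 11 tested, all at an unadjusted edgeR p under 0.05 (18% of all genes). Without Comb replicate 3 all 11 were higher, 7 of them at such a p (11.4% of all genes). The part of macrophages and T cells in the levels of Irf8, Itgae, Ccr7 and Cd209a was not tested.

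The 3 tested genes whose pattern over the 12 tumors was most like that of a member were taken by Pearson r of log2(CPM + 1). For Xcr1 they were Scimp (r = 0.967), Galnt4 (0.96) and Itgb2 (0.958), for Irf8 they included Il18bp (0.985) and Cd8b1 (0.977), and for Cd209a Siglecg (0.98), Arhgdib (0.98) and Tspan7 (0.979). For Clec9a they were Sash3 (0.986), Rasgrp4 (0.979) and Erg (0.972), and for Flt3 Nkg7 (0.974), Gimap3 (0.973) and Samsn1 (0.972). Over the 11 tumors other than Comb replicate 3, Scimp with Xcr1 gave 0.947, Il18bp with Irf8 0.977 and Sash3 with Clec9a 0.951. For Batf3, by contrast, the closest gene, Tmem106a, went from 0.977 to 0.749. Fscn1 had Adgrl1 (0.992) and Hoxa11 (0.991) among the nearest to it. Over all 12 tumors, Itgae, Zbtb46 and Ccr7 had no gene above 0.889, the nearest being Spata13 (0.881), Atg4d (0.889) and Mtcl1 (0.876), and over the 11 tumors their nearest genes were Arl4d (0.92), Zic4 (0.86) and Sphk1 (0.937). These values describe 12 tumors that share treatment groups and 1 library that stood apart, and they carry no test.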

How the data were processed

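The authors isolated total RNA from tumor tissue, prepared QuantSeq 3′ mRNA libraries and sequenced single-end 75-base reads. They deposited raw read counts per gene symbol. The aligner, counting tool, genome build and annotation are not given in the sources used here. Total counts and floors cover counting error only, and molecules were not counted by identifiers. Cells were injected into the right flank of each mouse, so the tumors were taken as coming from separate mice. The counts were analysed in R 4.3.3 with edgeR 4.0.16 (quasi-likelihood test, TMM scaling, filterByExpr, all 12 tumors in 1 fit of group means, 13464 genes, Benjamini-Hochberg adjustment over all of them). The script recovered known changes in data made for the purpose. Levels are TMM-scaled CPM computed from the deposited counts, with log2(CPM + 1) for exact permutation tests in scipy 1.17.1. Alternatives were DESeq2 1.42.0, no TMM, no filter, only the groups compared, the replicate block, a pseudocount of 0.1, each tumor left out, and, added after seeing the data, DESeq2 without Comb replicate 3. The members and lists were chosen with earlier results of these data known. The genes named were the members, the ligands, Ptprc, the 3 genes most correlated with each member, and up to 3 genes of each list with the lowest unadjusted edgeR p between tumors with and without anti-PD-1, unless a sentence says otherwise. Some of the correlated genes are not reported here. No 2 tumors of a group agreed within sampling noise (smallest chi-square per degree of freedom 11.4). Sequences were copied from a RefSeq promoter table.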

Additional observations from a re-analysis of the deposited data

How the results depend on the processing

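Of 1054 member log2 fold changes under the alternatives, 981 kept their direction and their side of the threshold, 28 came to pass it and 45 took the opposite sign. DESeq2 in place of edgeR, which called 0 genes in each of the 6 comparisons, called 4 genes for SFIH against Con, 6 for PD, 1998 for Comb (6 members), 417 for Comb against PD (2 members), 1250 for any anti-PD-1 (3 members) and 1 for the interaction. With Comb replicate 3 left out of DESeq2 these were 65, 68, 740 (2 members), 30, 994 (2 members) and none. That setting was chosen after seeing the data. edgeR counts of genes ran, over the tumors left out, from 0 to 3943 for Comb against Con (0 to 7 members), 0 to 2100 for Comb against PD (0 to 3 members) and 0 to 2370 for any anti-PD-1 (0 to 3 members), the highest each time without Comb replicate 1; the cause was not tested. At an unadjusted edgeR p under 0.05 there were 303, 537, 3406, 2424, 2523 and 344 genes. Omitting TMM moved the median log2 fold change of all genes by -0.25 for Comb against Con, -0.16 for Comb against PD, -0.18 for any anti-PD-1 and -0.17 for the interaction. Some estimates changed sign, and not all of these were near 0. For Comb against PD, Zbtb46 (-0.01) became 0.013 with DESeq2 and 0.30 with DESeq2 without Comb replicate 3, and Ccr7 (0.14) became -0.013 without TMM and -0.023 with DESeq2 without Comb replicate 3, where Flt3 (1.39) became -0.11. In the interaction that last setting gave -0.16 for Xcr1 (0.35) and -1.01 for Flt3 (0.50). With the replicate block the interaction of Flt3 was -0.090, and the block changed no call. Same-numbered tumors did not deviate together (6 of 18 pairs had r above 0.1), so the numbers were not taken as pairs. Over the tumors left out, SFIH against Con ranged from -0.28 to 0.015 for Irf8, -0.40 to 0.42 for Ccr7, -0.14 to 0.033 for Fscn1 and -0.34 to 0.96 for Cd209a. PD against Con ranged from -0.31 to 0.22 for Batf3, -1.02 to 0.29 for Ccr7 and -0.032 to 0.24 for Fscn1. Comb against Con ranged from -0.38 to 0.43 for Ccr7. Comb against PD ranged from -0.11 to 2.95 for Flt3, -0.36 to 0.29 for Zbtb46 and -0.23 to 0.94 for Ccr7. Any anti-PD-1 ranged from -0.52 to 0.15 for Ccr7 (levels -0.30 to 0.081). The interaction ranged from -0.18 to 0.77 for Xcr1, -0.9995 to 2.07 for Flt3, -0.12 to 0.53 for Zbtb46 and -0.28 to 1.01 for Ccr7. Depth limits genes with few reads, such as Flt3, Itgae, Clec9a and Cd209a.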

Other observations

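Genes of plasmacytoid dendritic cells, the interferon-producing lineage, did not follow 1 direction. Of 9 tested, 5 were higher in Comb than in Con, 4 of these at an unadjusted edgeR p under 0.05 (18% of all genes). Runx2 was lower at such a p (-0.92 ± 0.42, SE, and -0.51 ± 0.23 without Comb replicate 3), as were 7.3% of all genes. The median log2 fold change was 0.41 (0.29 without Comb replicate 3). Siglech, a receptor of these cells, was counted 12, 4 and 4 times in Con, 19, 4 and 13 times in PD, and 6, 62 and 97 times in Comb, so that Comb replicate 1 lay within Con. Ccr9, a gut-homing chemokine receptor, was counted 8, 9 and 7 times in Con and 8, 80 and 33 times in Comb. Spib, a transcription factor of plasmacytoid and B cells, was counted 46, 12 and 41 times in Con, 11, 5 and 23 times in PD and 29, 6 and 16 times in Comb.

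The B cell factor Pax5 was at 3 counts or fewer in every tumor, and the 6 B cell markers summed to between 4.17 and 19.3 CPM in the 11 tumors other than Comb replicate 3, which held 63.4 CPM. Lef1, a factor of naive T cells, had 29 to 107 reads in 11 tumors and none in Comb replicate 3, and Ly75, an endocytic receptor of cDC1 and mature dendritic cells, had 78 to 353 reads in 11 tumors and none in that library. A count of 0 in a library allows up to 3 reads. Lef1 and Ly75 were singled out after their values were seen.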
